A study of Mus musculus with 6 samples.

Results

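The genes that drive epiblast stem cells from G1 into S phase were compared between cells that kept Dicer and cells that had lost it; Dicer is the enzyme that releases most mature microRNAs from their hairpins. The set named 10 genes: the D-type cyclins Ccnd1, Ccnd2 and Ccnd3, the E-type cyclins Ccne1 and Ccne2, the kinase gene Cdk6, the phosphatase gene Cdc25a and the transcription factor genes E2f1, E2f2 and E2f3. A gene was included where a probe set of the array carried its symbol alone, and the brightest such probe set stood for it, which gave 9 of the 10 among the 20193 genes tested. Cyclin E2 was left out because its probe set also names Ints8. Epiblast stem cells (EpiSCs) are primed pluripotent cells of the post-implantation mouse epiblast.

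All cells carried Dicer fx/fx alleles and grew on plates coated with fetal calf serum (FCS), in N2B29 medium to which Activin (20 ng/ml) and bFGF (12 ng/ml) were added. Dicer -/- cells had been given 0.3 µM 4-OH-tamoxifen for 3 days and were then kept 2 days without it, while Dicer fx/fx controls had no tamoxifen; RNA was taken on day 5. Exposure to tamoxifen therefore went with deletion in every sample, and its part cannot be told apart from that of Dicer. The sources used here do not name the recombinase, its promoter or the number of lines, so the samples may all stem from 1 line. Experiments 18, 19 and 20 each supplied 1 control and 1 deleted sample, which made 6 Affymetrix mouse gene arrays with 3 per group, and this number of arrays limits the precision.

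In the early embryo and in pluripotent cells the passage from G1 to S is short. D-type cyclins activate the kinases CDK4 and CDK6, which begin to phosphorylate the retinoblastoma proteins, and cyclin E with CDK2 completes that step once the phosphatase CDC25A has removed inhibitory phosphates from CDK2. Retinoblastoma proteins then release the activating factors E2F1, E2F2 and E2F3, which switch on genes for DNA replication as well as cyclin E and some E2F genes themselves.

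MicroRNAs recognise messenger RNAs through short seed sequences. In human cells cyclin D1 has been reported as a target of miR-302, E2F1 of miR-17 and miR-20a, cyclins D1 and E1 and CDK6 of the miR-15 and miR-16 family, CDK6 and CDC25A of let-7, and CDK6 and cyclin E2 of miR-34. The mature mouse sequences of these families, whose production needs Dicer, are shown so that the shared seeds can be read; they come from RefSeq (GRCm38.p6), which held all 9 that were looked up. Capitals mark the seed, bases 2 to 8, and miR-294 stands for the miR-290 cluster of mouse pluripotent cells.
mmu-miR-294-3p: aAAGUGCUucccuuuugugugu
mmu-miR-302b-3p: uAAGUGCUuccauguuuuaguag
mmu-miR-302d-3p: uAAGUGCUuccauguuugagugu
mmu-miR-17-5p: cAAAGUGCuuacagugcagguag
mmu-miR-20a-5p: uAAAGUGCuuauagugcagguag
mmu-miR-15b-5p: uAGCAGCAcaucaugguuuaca
mmu-miR-16-5p: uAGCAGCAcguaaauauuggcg
mmu-let-7a-5p: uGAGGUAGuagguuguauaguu
mmu-miR-34a-5p: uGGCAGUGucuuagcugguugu
The 9 microRNAs fall under 5 seeds. Those of miR-294 and miR-302 are identical, and that of miR-17 and miR-20a is the same motif moved by a base. Neither mature microRNAs nor 3' UTR matches were measured here.

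The deleted gene checked the labels. Dicer1 fell in all 3 experiments, from intensities of 1836, 2079 and 2098 in controls 18, 19 and 20 to 601.6, 553.1 and 645.4 in the deleted samples, a log2 difference of -1.74 ± 0.09 (SE, n = 3 per group, limma adjusted p = 0.045, or 0.067 with the experiment as a block). The sources used here do not say which part of the gene its probes cover. Median intensity was 247.7 to 260.1 on the 6 arrays. Of the 12 epiblast stem cell markers listed, Pou5f1 gave 6268 to 7636 and Otx2 5709 to 7598 on every array, and the summed signal of all 12 was 47595 to 61212. Among naive markers Zfp42 gave 61.0 to 76.3 and Dppa3 60.3 to 77.4, well under the median of the array. Nr0b1, Prdm14, Esrrb and Tbx3 were also under it on every array. Klf4 (340 to 838), Klf2 (390 to 703), Tfcp2l1 (323 to 558) and Fgf4 (317 to 1609) were above it on every array. No gene of the 5 marker lists passed the test. Experiment 20 stood apart: the 13 markers of primitive streak, mesoderm and endoderm summed to 34691 in its control and 32453 in its deleted sample, against 4556 to 9933 in experiments 18 and 19. In its deleted sample the pluripotency gene Nanog gave 1915, against 4518 to 6963 on the other arrays. The summed signal of the 13 fibroblast markers measured was 5114 to 8105 for controls and 8109 to 9193 after deletion, with Acta2 at 2146 to 5148 and 5097 to 6444. Without Acta2 the other 12 summed to 2789 to 2968 for controls and 2749 to 3012 after deletion, and 6 of them had a lower mean after deletion. By mean log2 signal they ran from Lum, at 37.8 to 42.3 over the 6 arrays, to Thy1, at 270.7 to 641.3. The 8 neural markers measured summed to 4582 to 6450 for controls and 5472 to 7811 after deletion, and the 10 naive markers to 2187 to 4165 and 2256 to 3120. The part of these differences in the results below was not tested. In RNA from whole cultures, fewer cells of a type and less RNA per cell cannot be told apart.

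No member passed the test for deletion over all genes. At an adjusted p under 0.05 limma called 0 of the 9 members, with 0% of all genes called higher and 0.00495%, Dicer1 alone, called lower; with the experiment as a block it called 0 members and 0% of genes in either direction. At an unadjusted p under 0.05, 1 of the 9 was higher without the block (2.22% of all genes were higher and 3.77% lower) and 3 were higher with it (8.04% and 9.05% of all genes, 13.6% and 9.5% of those at or above the median signal). The mean was higher in the deleted samples for 6 of 9, against 37.8% of all genes and 50.3% of those at or above the median signal. A steady direction over the 3 experiments is a weaker criterion than a call. Of the 9 members 4 were higher in the deleted sample of all 3 experiments, namely the 3 D-type cyclins and E2f1, and 0 were lower in all 3. Among all genes 15.2% were higher and 28.3% lower in all 3. Since all 9 members had a signal above the median of the array, the nearer background is the 10097 genes at or above it, of which 23.3% were higher and 21.6% lower in all 3. The other 5 members differed in direction between experiments. The plot of signal by sample shows each member.

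**Figure D1:**
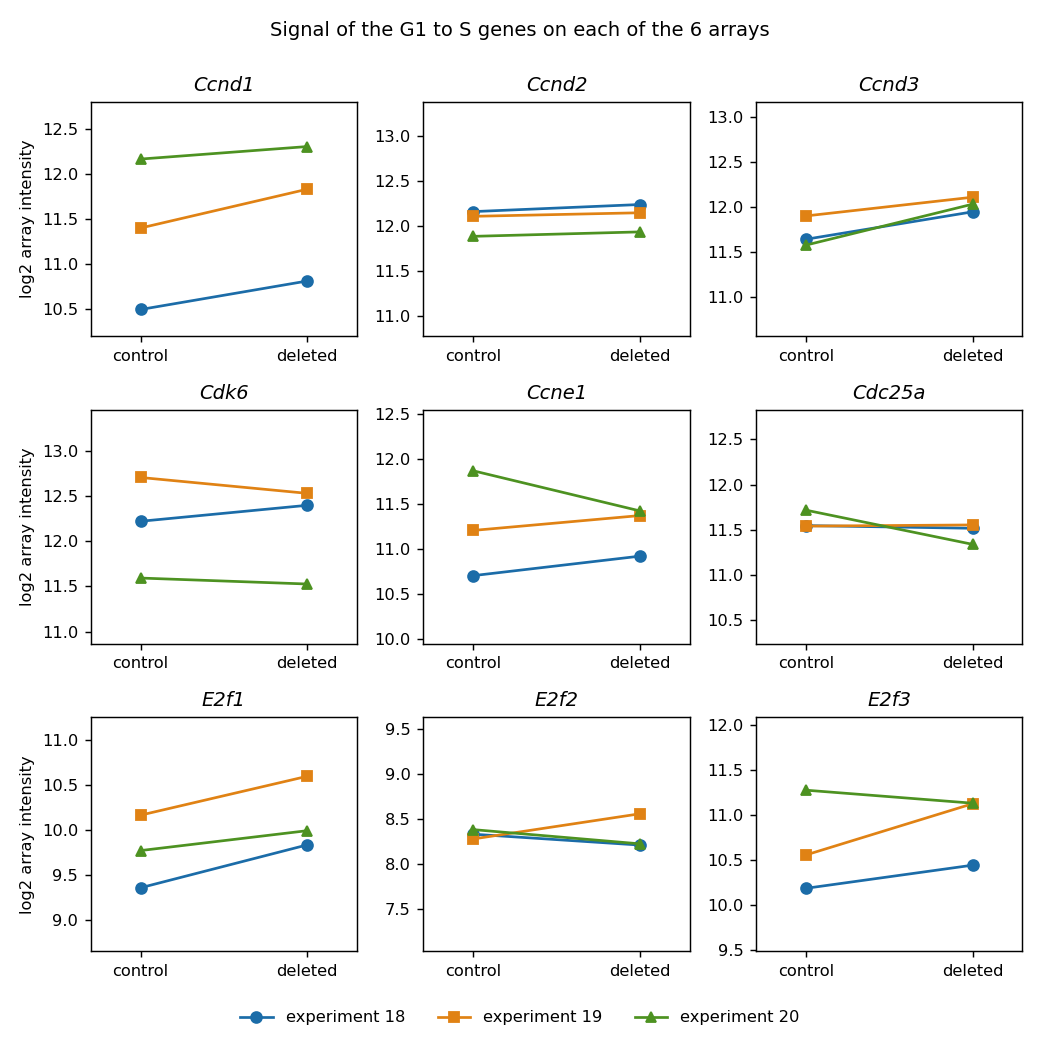
Log2 array intensity (vertical axis, each panel spans the same number of log2 units) of the 9 measured genes in control and deleted samples. Each line joins the 2 samples of an experiment. The lines of Ccnd1 lie far apart with a like slope, while those of Ccne1, Cdc25a, E2f2, E2f3 and Cdk6 fall in experiment 20.

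Cyclin D1 had the widest baseline of the 9 and a small difference within each experiment. Ccnd1 (Entrez 12443) gave 1439, 2695 and 4582 in controls 18, 19 and 20 and 1792, 3631 and 5044 in the deleted samples. Each deleted sample was above its own control, yet the groups overlapped almost entirely, because control 20 was brighter than deleted 18 and deleted 19. In the order of the experiments the ratios of deleted to control were 1.24, 1.35 and 1.10. The mean log2 difference was 0.30 ± 0.55 (SE, adjusted p = 0.982), which blocking on experiment narrowed to an SE of 0.077 (adjusted p = 0.208, 95% interval 0.10 to 0.49). Without control 18 the difference turned to -0.13 and without deleted 20 to -0.03, since the baseline of an unmatched sample then enters it. A much dimmer probe set that names both Oraov1 and Ccnd1, and so lies outside the set, gave 271.8, 345.8 and 316.5 in the controls and 277.8, 307.5 and 311.3 in the deleted samples. Its ratios of 1.02, 0.889 and 0.984 did not show a steady excess.

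Cyclin D3 was the member whose groups did not overlap. Ccnd3 (Entrez 12445), the D-type cyclin best known from lymphocyte development, gave 3200, 3829 and 3059 in the controls and 3951, 4422 and 4191 in the deleted samples. The lowest deleted sample was brighter than the highest control, a pattern found upward in 3.26% of all genes and in 5.04% of those at or above the median signal; downward it was found in 9.93% of all genes. The ratio was 1.23, 1.15 and 1.37 in experiments 18, 19 and 20. The log2 difference of 0.32 ± 0.11 (SE, n = 3 per group) had an adjusted p of 0.824, or 0.181 with the block. A two-sided exact permutation test gave p = 0.1, the smallest value that groups of 3 allow. Groups without overlap always give this value, so the test adds nothing to the separation above. The difference of Ccnd3 stayed between 0.26 and 0.42 when any array or experiment was left out.

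Cyclin D2 differed little with deletion on its brighter probe set and more on the other, and neither passed. Ccnd2 (Entrez 12444), which supports growth of granulosa cells and neural precursors, has 2 probe sets of its own. The brighter one, annotated to 3 Ensembl transcripts, gave 4566, 4403 and 3775 in the controls and 4821, 4525 and 3906 in the deleted samples. The deleted sample was above its control each time, by ratios of 1.06, 1.03 and 1.03, and the log2 difference of 0.06 ± 0.12 had an adjusted p of 0.984 (0.634 with the block, 95% interval -0.09 to 0.20). The other probe set, annotated to 1 transcript, gave 1718, 2755 and 2515 in the controls and 2266, 2816 and 4342 in the deleted samples. Its ratios were 1.32, 1.02 and 1.73, a log2 difference of 0.41 ± 0.29 (adjusted p = 0.901, or 0.277 with the block). Over the 6 arrays the probe sets correlated with r = -0.55, so they did not follow the same signal. Their changes differed by 0.35 ± 0.37 (SD, n = 3), with a two-sided exact permutation p of 0.6. Both gave a higher signal in the deleted sample of every experiment, so the count of 4 steady members is the same with either; with the dimmer probe set of E2f3 as well, an alternative chosen after the values were seen, the count was 5.

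**Figure D2:**
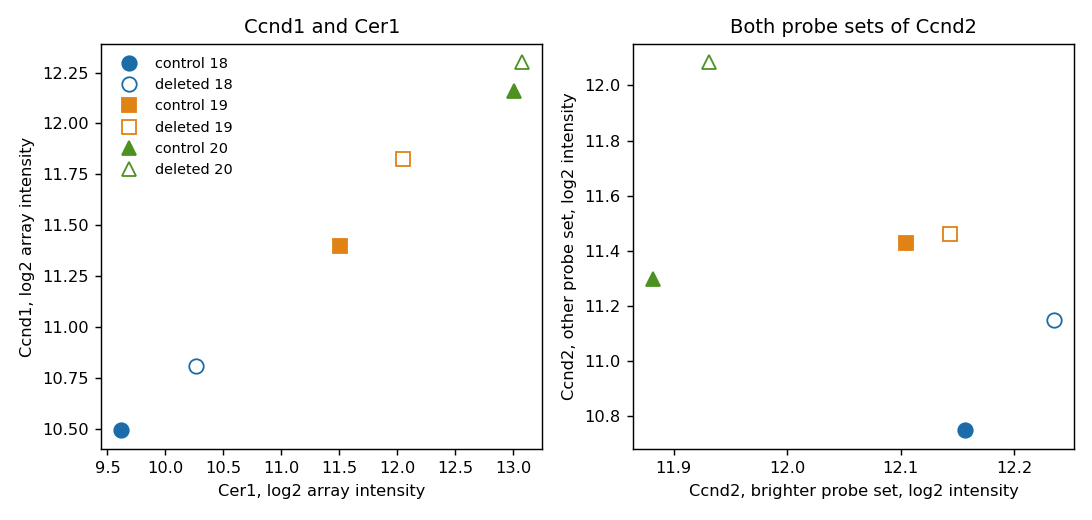
Left, log2 intensity of Ccnd1 against Cer1, each point 1 of the 6 arrays, filled for controls and open for deleted samples; the points line up from control 18 to deleted 20. Right, log2 intensity of the other probe set of Ccnd2 against the brighter one; deleted 20 is highest on the vertical axis and next to lowest on the horizontal one.

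Cdk6, the kinase partner of the D-type cyclins, differed more between experiments than with deletion. Cdk6 (Entrez 12571) gave 4785, 6702 and 3091 in the controls and 5410, 5933 and 2953 in the deleted samples. Both arrays of experiment 20 were the dimmest, and the ratio of deleted to control was 1.13, 0.885 and 0.955 in experiments 18, 19 and 20. The log2 difference was -0.02 ± 0.38 (adjusted p = 0.998) with a blocked 95% interval of -0.24 to 0.20.

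Cyclin E1 had a higher signal with deletion in experiments 18 and 19 and a lower one in experiment 20, and it did not pass the test. Ccne1 (Entrez 12447), the activator of CDK2, gave 1666, 2360 and 3733 in the controls and 1935, 2645 and 2743 in the deleted samples. Control 20 was the brightest of the 6, and the 3 deleted samples lay closer together than the 3 controls. The ratios were 1.16, 1.12 and 0.735, the log2 difference was -0.02 ± 0.32 (adjusted p = 0.998, or 0.951 with the block), and the blocked 95% interval was -0.39 to 0.35. The probe set shared by Ccne2 and Ints8, which lies outside the set because it cannot be divided between an E-type cyclin and an integrator subunit, gave 480.0, 419.2 and 1325 in the controls and 753.5, 923.7 and 1385 in the deleted samples. Its ratios of 1.57, 2.20 and 1.04 were all above 1.

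Cdc25a (Entrez 12530) was level in experiments 18 and 19. It gave 2986, 2974 and 3362 in the controls and 2924, 3001 and 2585 in the deleted samples, with ratios of 0.980, 1.01 and 0.769. Only the pair of experiment 20 separated by more than the spread of the other 4 arrays. The log2 difference was -0.13 ± 0.09 (adjusted p = 0.893, or 0.516 with the block).

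On the brightest probe sets E2f1 had the largest mean difference among the 9 members over all 6 arrays, an order that depended on single arrays. The other probe set of Ccnd2 gave a larger one, 0.41. E2f1 (Entrez 13555), an activating E2F that can also promote apoptosis, gave 654.5, 1144 and 871.5 in the controls and 910.0, 1543 and 1015 in the deleted samples. Each deleted sample exceeded its control, by ratios of 1.39, 1.35 and 1.17, but control 19 was brighter than deleted 18 and deleted 20, so the groups overlapped. The log2 difference was 0.38 ± 0.28 (adjusted p = 0.908), and the blocked SE was 0.074 (adjusted p = 0.164, 95% interval 0.18 to 0.57). Without experiment 20 the blocked fit called E2f1 higher, at 0.45 ± 0.08 with an adjusted p of 0.039. In that fit 1.55% of all genes were called higher and 0.366% lower. It rests on experiments 18 and 19 alone, so its SE draws largely on the spread of other genes. The blocked fit gave 0.33 (adjusted p = 0.500) without experiment 18 and 0.35 (adjusted p = 0.458) without experiment 19. In those fits no gene was called in either direction. Leaving out single arrays, the unblocked difference was 0.17 without control 18 and 0.15 without deleted 19, where that of Ccnd3 was 0.29 and 0.28. In the blocked fit without experiment 20, Ccnd1 (0.37, adjusted p = 0.065) and E2f3 (0.41, adjusted p = 0.077) did not pass.

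The other activating E2F genes did not pass either, and on their brightest probe sets their direction differed between experiments. E2f3 (Entrez 13557) gave 1162, 1503 and 2473 in the controls and 1388, 2228 and 2238 in the deleted samples, with ratios of 1.19, 1.48 and 0.905. It was higher with deletion in experiments 18 and 19 and lower in experiment 20, and its log2 difference was 0.23 ± 0.33 (adjusted p = 0.970, or 0.454 with the block). A dimmer probe set of E2f3 gave 485.6, 505.9 and 747.1 in the controls and 487.7, 674.1 and 750.7 in the deleted samples, higher with deletion in all 3 but by very little outside experiment 19, and correlated with the first at r = 0.96 over the 6 arrays. E2f2 (Entrez 242705) was the dimmest signal of the set and gave 321.2, 309.7 and 332.7 in the controls and 295.4, 375.8 and 298.2 in the deleted samples. The deleted sample of experiment 19 was the highest of the 6 and the other deleted samples the lowest, and the log2 difference was 0.00 ± 0.11 (adjusted p = 0.9999).

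**Figure D3:**
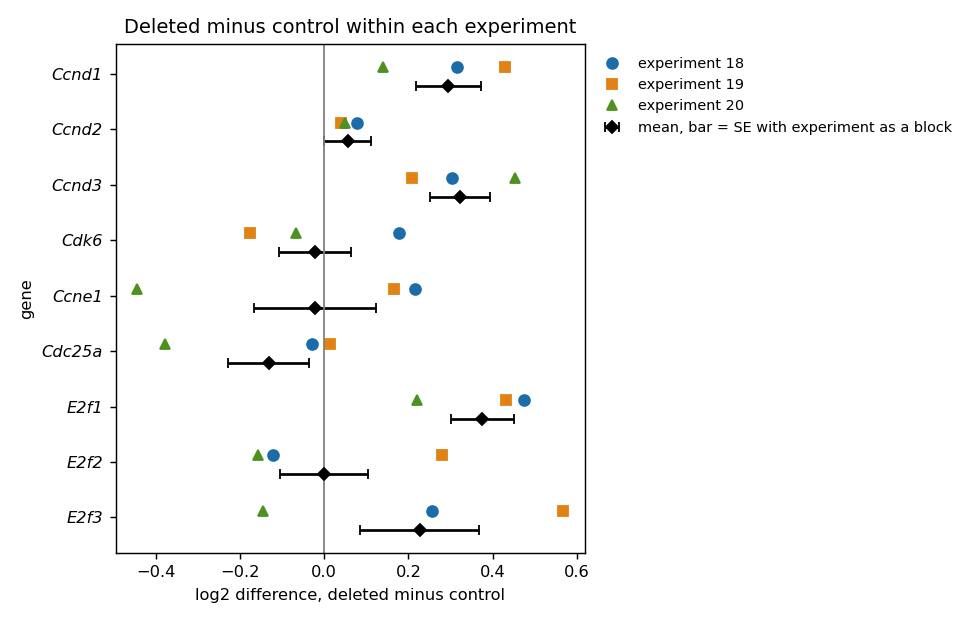
Log2 difference of deleted minus control (horizontal axis) for the 9 genes, with 1 symbol per experiment and a diamond for the mean, whose bar is the SE of the limma fit with experiment as a block. Ccnd1, Ccnd2, Ccnd3 and E2f1 have all 3 symbols right of 0; that of experiment 20 lies left of 0 for Ccne1, Cdc25a, Cdk6, E2f2 and E2f3.

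The share of members with a higher signal after deletion was lower in experiment 20 than in the others, and there it was near that of all genes. By their values 7 of 9 members were higher with deletion in experiment 18 and 8 of 9 in experiment 19, but 4 of 9 in experiment 20, where 5 were lower. Among all genes 55.3%, 61.5% and 57.4% were lower in experiments 18, 19 and 20, and of those at or above the median signal 44.8%, 51.5% and 51.6%. Their median log2 differences were 0.22, 0.21 and -0.07 in that order, while the median of the genes at or above the median signal was 0.02, -0.01 and -0.01. Over the 3 experiments the members' median was 0.06, beside -0.04 for all genes and 0.0009 for those at or above the median signal. Each experiment has 1 array per group, so the difference between experiments in these effects has no test. Experiment 20 is also the one with the high streak, mesoderm and endoderm signal and the low Nanog signal given above.

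For most members the range of the 3 controls was larger than the mean difference with deletion. A range and a mean difference are unlike measures, so this comparison is no test. The controls of a member spanned a median of 1.75-fold from lowest to highest, against 1.35-fold for the genes at or above the median signal. The span was 3.18-fold for Ccnd1, 2.24-fold for Ccne1, 2.17-fold for Cdk6 and 2.13-fold for E2f3, and only 1.07-fold for E2f2. A limma test of the experiment term with deletion in the model, chosen after the values were seen, called 4 of the 9 members: Ccnd1 (adjusted p = 0.0053), Cdk6 (0.010), E2f1 (0.014) and E2f3 (0.047). It called 21.4% of all genes and 34.5% of those at or above the median signal. Ccnd1, Ccne1 and E2f3 shared an order, dimmest in experiment 18 and brightest in experiment 20 among the controls. Over the 6 arrays, which share experiments, Ccnd1 correlated with E2f3 at r = 0.96 and with Ccne1 at r = 0.91, and Ccne1 with E2f3 at r = 0.93. The brighter probe set of Ccnd2 ran the other way, with r = -0.82 to Ccnd1 and 0.83 to Cdk6. These correlations describe 6 arrays and carry no test.

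The genes most like a member were sought among the other 10821 genes with a mean log2 signal of at least 8. For Ccnd1 they were Cyp4f15, a cytochrome P450 gene (r = 0.997), Cer1, which encodes the secreted Nodal and BMP antagonist Cerberus (0.997), and Hnrnpr, which encodes an RNA-binding protein (0.996). Cer1 gave 786, 2915 and 8222 in the controls and 1230, 4241 and 8651 in the deleted samples. Like Ccnd1, it rose from experiment 18 to 20 and was higher in each deleted sample than in its control. The sizes differed: log2 differences were 0.65, 0.54 and 0.07 for Cer1 and 0.32, 0.43 and 0.14 for Ccnd1. For Ccne1 the nearest were Nol6 (0.999), Elac2 (0.996) and the translation initiation gene Eif2s1 (0.996), and for E2f1 Pctp (0.996), Cc2d2a (0.991) and Dis3l (0.988). With 6 arrays and so many genes, values this high are found for some gene by searching alone.

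E2F factors bind promoters at a short core, and the promoters of E2f3 and Cdc25a are shown because each holds 2 matches to it. Both strands were searched for the core TTCCCGC, for its variant TTCGCGC, and for the variants that begin with TTG, namely TTGCCGC together with TTGGCGC, in windows of 300 bases from 250 before to 50 after the annotated start (RefSeq, GRCm38.p6); a match may overlap another. Of 32851 windows 9.57% held a match and 1.18% held 2 or more. Among the members 7 genes had windows in the table, 10 in all, and 3 of these windows held a match, those of E2f2, E2f3 and Cdc25a. Only windows at these annotated starts were searched. The E2f1 window may not cover the main promoter of that gene, so the lack of a match there says nothing about it. Capitals mark the matches in the E2f3 window at chr13:29986014-29986313 on the minus strand and the Cdc25a window at chr9:109875329-109875628 on the plus strand, both written along the gene.
E2f3: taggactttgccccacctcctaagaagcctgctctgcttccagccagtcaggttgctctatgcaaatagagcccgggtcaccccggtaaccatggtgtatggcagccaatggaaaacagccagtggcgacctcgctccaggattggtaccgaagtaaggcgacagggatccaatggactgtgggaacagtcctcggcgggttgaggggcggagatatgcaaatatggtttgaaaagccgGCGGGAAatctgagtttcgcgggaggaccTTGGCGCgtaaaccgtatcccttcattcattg
Cdc25a: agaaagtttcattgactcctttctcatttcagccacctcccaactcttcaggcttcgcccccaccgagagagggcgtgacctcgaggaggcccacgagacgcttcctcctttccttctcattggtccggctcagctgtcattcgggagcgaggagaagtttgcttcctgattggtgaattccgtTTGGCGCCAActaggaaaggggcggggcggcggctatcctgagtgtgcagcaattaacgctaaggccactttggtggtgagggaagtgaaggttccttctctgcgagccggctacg
In the E2f3 window the matches begin 11 bases before the start, read on the opposite strand, and at base 19 after it. In the Cdc25a window a match on the gene's strand and one on the opposite strand overlap and begin 66 and 63 bases before the start. Factor binding at these letters was not measured.

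The E2F target genes of S phase, a list of replication and nucleotide synthesis genes, differed between experiments in the same way. Of 58 symbols listed 51 were measured, and 0 passed in either direction with or without the block. The deleted sample was higher for 31 of the 51 in experiment 18 and for 40 in experiment 19, but lower for 45 in experiment 20. Of the genes at or above the median signal 44.8%, 51.5% and 51.6% were lower in experiments 18, 19 and 20. The median log2 difference of the list was 0.05, 0.10 and -0.20 in experiments 18, 19 and 20, and -0.01 over all 3. In all 3 experiments 5 of the 51 were higher and 6 lower. The shares were 23.3% and 21.6% among the genes at or above the median signal, and 15.2% and 28.3% among all genes. The listed gene with the smallest unadjusted p was Pola1, the catalytic subunit of DNA polymerase alpha, with 620, 795 and 745 in the controls and 956, 1474 and 932 in the deleted samples. All its deleted samples were brighter than all its controls, and its log2 difference was 0.61 ± 0.21 (adjusted p = 0.831, or 0.159 with the block). The origin recognition gene Orc1 came next at -0.27 ± 0.14 (adjusted p = 0.840, or 0.396 with the block), with control 20 at 1101 and deleted 20 at 691.

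**Figure D4:**
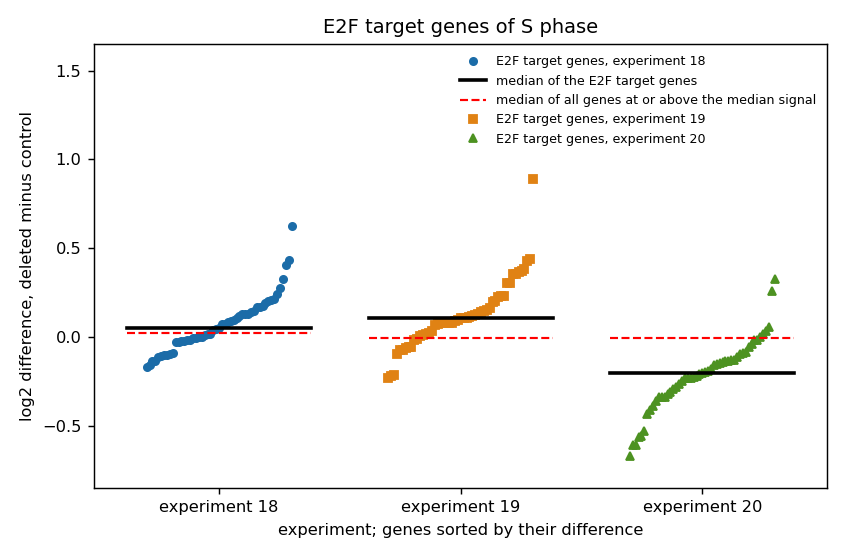
Log2 difference of deleted minus control (vertical axis) for the 51 E2F target genes of S phase, sorted within each experiment. The black line is their median and the dashed red line the median of all genes at or above the median signal; the black line lies above the red one in experiments 18 and 19 and below it in experiment 20.

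The remaining genes of the pathway gave 0 calls in either direction, with or without the block. As background, 23.3% of the genes at or above the median signal were higher and 21.6% lower in all 3 experiments (15.2% and 28.3% of all genes). Among 29 measured kinase partners and regulators 5 were higher and 9 lower in all 3 experiments and the median log2 difference was 0.00. Wee1, whose kinase inhibits CDK1 and CDK2, was at 0.17 ± 0.08 (adjusted p = 0.837, or 0.325 with the block). The mitotic phosphatase gene Cdc25c was at -0.45 ± 0.24 (0.848, or 0.138 with the block). Of 7 other E2F and DP genes 0 were higher and 2 lower in all 3, with a median of 0.01. The repressor gene E2f8 was at -0.31 ± 0.19 and Tfdp1, the dimerization partner of E2F1 to E2F3, at -0.33 ± 0.21 (adjusted p = 0.875 for both). Tfdp1 gave 2181, 2584 and 3478 in the controls and 1812, 2146 and 2553 in the deleted samples, lower in each experiment, opposite to E2f1. Of 13 CDK inhibitors, pocket proteins and DREAM complex genes 2 were higher and 0 lower in all 3, with a median of 0.03. The pocket protein gene Rbl1, which encodes p107, was at 0.25 ± 0.23 (adjusted p = 0.934, or 0.238 with the block). Lin9 was at -0.11 ± 0.09 (0.926, or 0.543 with the block). Of 32 other cyclins and CDKs 7 were higher and 8 lower in all 3, with a median of 0.01. The kinase gene Cdkl3 was at 0.29 ± 0.09 (adjusted p = 0.824, or 0.203 with the block). Without experiment 20 the blocked fit called Pola1 (0.76, adjusted p = 0.019) higher and Cdc25c (-0.43, 0.042) and Ccna1, the germ cell A-type cyclin (-0.57, 0.026), lower. That fit called 1.55% of all genes higher and 0.366% lower, while the blocked fits without experiment 18 or 19 called no gene.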

How the data were processed

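RNA of 6 samples was hybridised to 1 Affymetrix MoGene 1.0 ST array each. RMA and Expression Console 1.2 are named in the submitters' processing notes; the annotation is mm9, per the file headers. The authors deposited a linear intensity and a log2 value centred on the probe set's median over the 6 arrays; the series table held the same values (largest difference 0), so its use as an alternative changed nothing. RMA sets arrays to a common scale, so a general change in RNA content cannot be seen.

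Log2 of the deposited intensity was tested with limma 3.58.1 in R 4.3.3 (lmFit, eBayes, group alone), with Benjamini-Hochberg adjustment over 20193 genes, each represented by its brightest probe set naming 1 gene; 19486 matched RefSeq by Entrez ID. The experiment as a block was the main alternative. Experiment numbers pair the samples by the labels; deviations of paired arrays correlated at r = 0.83, 0.61 and 0.80. The scripts were tested on simulated data. Members and lists were chosen with earlier results of these data known. Named were all members, Dicer1, the 2 list genes with the smallest unadjusted p, and the 3 genes most like Ccnd1, Ccne1 and E2f1; others (Ccna1 and the cell type markers) were named after their values were seen. A gene that this rule names is not reported here. Other alternatives were filters, normalization, probe set averaging, array weights and leaving out arrays or experiments. Figures used matplotlib 3.10.9.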

Additional observations from a re-analysis of the deposited data

How the results depend on the processing

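Members past the threshold were 0 under the block, both filters on dim genes, trend and robust settings, repeated quantile normalization, median centring, averaged probe sets, array weights, the series table and the other probe sets of Ccnd2 and E2f3 (chosen after seeing the data). Leaving out arrays or experiments, with or without the block, gave 0 to 1 members and 0 to 2 list genes in each direction; all these calls came from the blocked fit without experiment 20. The median difference of the members ranged from 0.00057 to 0.26. Ccnd3 and E2f1 were higher throughout, and Cdc25a was lower throughout. When arrays or experiments were left out, E2f1 ranged from 0.15 to 0.58 and Cdc25a from -0.20 to -0.0083. Signs turned without control 18 for Ccnd1 (-0.13), Cdk6 (0.0024) and E2f3 (-0.017), without control 19 for Cdk6 (0.25) and E2f2 (-0.026), and without control 20 for Ccnd2 (-0.027) and Ccne1 (0.28). They turned without deleted 18 for Ccnd2 (-0.010) and Ccne1 (0.14), without deleted 19 for E2f2 (-0.11), and without deleted 20 for Ccnd1 (-0.033) and Cdk6 (0.29). Without experiment 19 they turned for Cdk6 (0.056) and E2f2 (-0.14) and without experiment 20 for Ccne1 (0.19) and Cdk6 (0.00069), with or without the block. Over these settings Ccnd1 ranged from -0.13 to 0.71, Ccnd2 from -0.027 to 0.14, Ccne1 from -0.30 to 0.28, Cdk6 from -0.31 to 0.29, E2f2 from -0.14 to 0.079 and E2f3 from -0.017 to 0.53. They also turned for Ccne1 with array weights (0.14) and for E2f2 with quantile normalization (-0.0047). Dicer1 stayed at -1.74 but lost its call with the replicate block (adjusted p = 0.067) and with trend and robust settings (0.107); its difference was -1.81 to -1.66 when samples were left out, and of these settings only the block without experiment 20 kept the call. The cause was not tested. The block on all 6 arrays changed no other call. The signal has no detection call, so no gene can be said to be absent.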
